A study of Homo sapiens with 8 samples.

Results

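The genes that write and erase histone marks were followed in human bronchial epithelial cells exposed to formaldehyde. They were measured in input RNA and in RNA captured with an antibody against the oxidized base 8-oxo-7,8-dihydroguanosine (8-oxoG). The list held 55 of the 58735 genes in the count tables and was chosen by gene name from known enzyme families. It comprised 4 class I histone deacetylases, 5 class II histone deacetylases, 6 sirtuins, 9 acetyltransferases, 7 genes grouped as methyltransferases of lysine 4 of histone H3 (H3K4), 11 other histone methyltransferases and 13 demethylases. Classes follow gene names, and enzyme activity was not measured, for KMT2E or any other member. These genes had 895 of the 206601 annotated isoforms, and 754 of the 895 had a count in at least 1 library.

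BEAS-2B, an immortalized line derived from normal human bronchial epithelium, was held at an air–liquid interface and given humidified clean air (CA) or 1 ppm formaldehyde (FA) for 2 h, with 6 h of recovery. RNA of each pool was depleted of ribosomal RNA and then split into input (IN) and immunoprecipitated (IP) RNA. This gave 4 groups (CA_IN, FA_IN, CA_IP and FA_IP) of 2 libraries each, replicates 1 and 3. A pool's input and immunoprecipitated RNA are thus paired, and a group is a small sample of 1 cell line rather than of airway tissue. P-values measure the spread between these libraries only.

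Input libraries held 26152651 to 45144392 expected counts and immunoprecipitated libraries 16883500 to 23658012, of which the 55 genes took 0.217% to 0.238% and 0.240% to 0.273%. Of the markers checked, KRT7 had the highest epithelial level, at 1171 to 1980 CPM per kb (CPM, the counts-per-million-reads scale that corrects for library size), and FOXJ1, SCGB1A1, MUC5AC and SFTPC, which mark differentiated airway cells, did not pass the filter of 10 counts in 2 libraries. PTPRC and HBB, of blood cells, did not pass either, while CD14 lay at 3.07 to 5.30. KRT5, a basal cell keratin, was at 329 in replicate 1 and 440 in replicate 3 of CA_IN, and at 343 and 497 in FA_IN.

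Acetyltransferases add acetyl groups to histone lysines, a mark of open chromatin, and deacetylases remove them, class I and II with zinc and sirtuins with the cofactor NAD. Most methyltransferases of the KMT2 and SETD1 families methylate H3K4 at promoters and enhancers. EHMT2, SETDB1 and EZH2 place repressive methyl marks, and the KDM enzymes take methyl groups off. Most of these enzymes work inside large complexes and have several isoforms, and guanine is the base that becomes 8-oxoG.

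All 55 genes passed the filter. In clean air input, levels per length (CPM per kb of effective length, scaled by the trimmed mean of M-values, TMM) spanned from about 1 to above 100. HDAC1, the catalytic subunit of several corepressor complexes, had the highest level at 106 ± 1.27 (SD, n = 2), and HDAC8 the lowest of class I at 17.8 ± 0.177. The tubulin deacetylase HDAC6 led class II at 14.4 ± 0.495, and HDAC9 was lowest there at 1.09 ± 0.337. The gap between highest and lowest was wider than the SD of either in both classes.

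Among sirtuins the nucleolar SIRT7 was highest at 17.3 ± 2.26 and the mitochondrial SIRT5 lowest at 2.64 ± 0.121. KAT7 led the acetyltransferases at 24.8 ± 3.11, and CREBBP, a coactivator, stood lowest at 3.22 ± 0.30. KMT2E was highest of the H3K4 group at 18.2 ± 2.35 and SETD1B lowest at 1.17 ± 0.237. NSD2, an H3K36 methyltransferase, led the other methyltransferases at 54.2 ± 0.191, and the H3K79 methyltransferase DOT1L was lowest at 3.0 ± 0.185. KDM1A, the first known histone demethylase, was at 59.6 ± 0.580 and KDM4B at 1.73 ± 0.129, the extremes of the demethylases. The heat map gives each gene's deviation from its mean in every library.

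**Figure D1:**
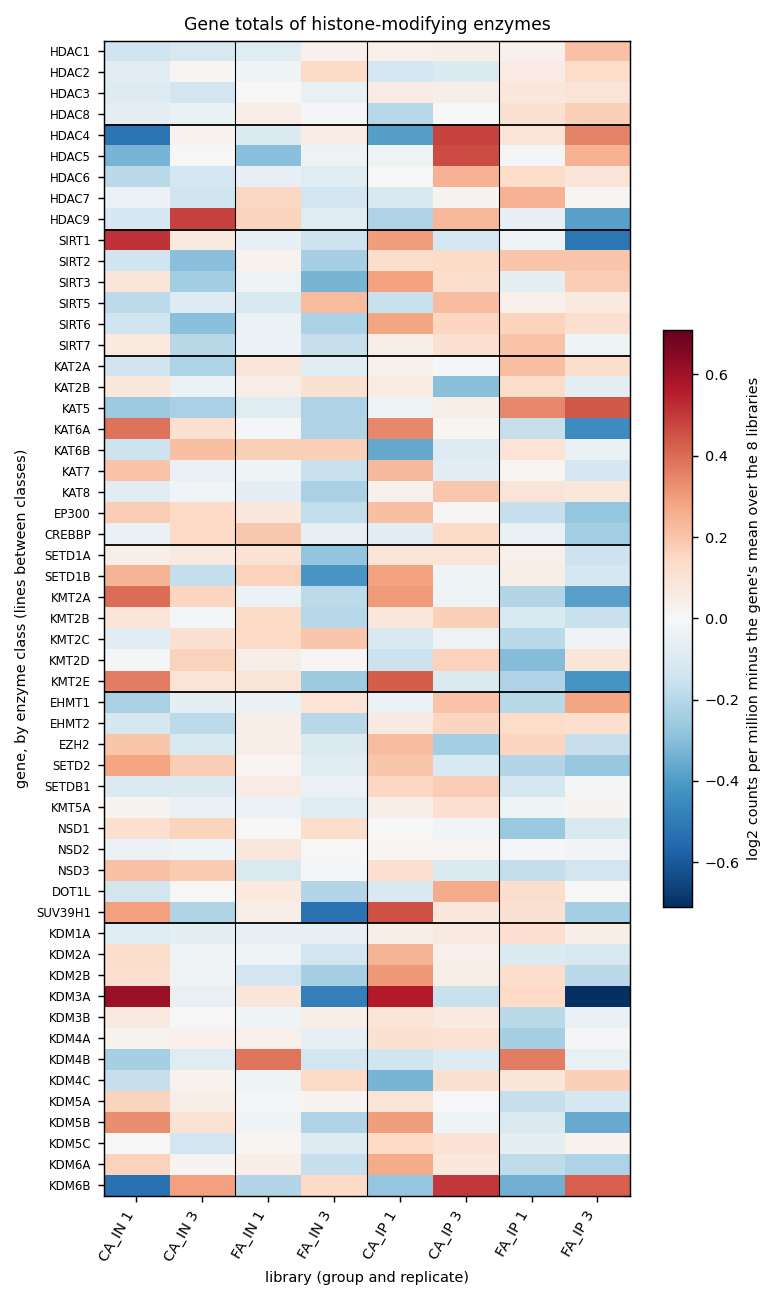
Deviation of each gene's log2 CPM (TMM-scaled) from its own mean over the 8 libraries, for the 55 genes in rows by enzyme class and the 8 libraries in columns. KDM3A and SIRT1 were higher in replicate 1 than in replicate 3 of every group, in input and immunoprecipitated RNA alike.

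The first question was whether transcripts of these enzymes were taken up by the 8-oxoG antibody more or less than the transcripts around them. In clean air no gene of the list was called at an adjusted p of 0.05 in edgeR's quasi-likelihood test, where 1.91% of the 18242 genes tested were. An unadjusted p under 0.05 was found for 5 of the 55, against 12.6% of all genes. DESeq2 called none of the 55 either, and 5.04% of the genes to which it gave an adjusted p. The median log2 fold change (log2FC) of the list was 0.08, against 0.02 over all genes tested, with 34 of 55 above 0. In formaldehyde again none was called, where 1.5% of all genes were, and 4 of 55 had an unadjusted p under 0.05 against 9.10% of all genes. DESeq2 called none of the 55 there, and 2.13% of all genes. The median was 0.03 against 0.00, and 30 of 55 were above 0.

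When the pool that input and immunoprecipitated RNA shared was taken into account, some genes passed. This paired edgeR fit called 6 of the 55 in clean air, all higher in immunoprecipitated RNA, where 17.4% of all genes were called. In formaldehyde it called 5, of which 3 were higher and 2 lower, where 10.1% of all genes were called. The share of the list that was called therefore lay below the share of all genes in clean air and close to it in formaldehyde. HDAC5 and SIRT2 were called higher in both treatments. The values of the genes called follow by class.

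Among the deacetylases, all 4 class I genes lay above 0 in formaldehyde, with a median of 0.11 and a range from 0.04 (HDAC2) to 0.15 (HDAC1), and 2 of 4 in clean air, with HDAC2 lowest at -0.07 (SE 0.09) and HDAC1 highest at 0.16 (SE 0.09). HDAC5, a class II enzyme that shuttles between nucleus and cytoplasm, had 6.33 and 7.94 CPM per kb in CA_IN and 7.76 and 11.0 in CA_IP (replicates 1 and 3), so that within each pool the immunoprecipitated library was higher. Its log2FC was 0.39 (SE 0.20) without the pool and 0.38 (SE 0.08, adjusted p = 0.00177, edgeR) with it. In formaldehyde the levels were 6.47 and 7.76 against 7.89 and 9.44, a log2FC of 0.28 (SE 0.08, adjusted p = 0.0339 with the pool, edgeR). HDAC6 was at 14.1 and 14.8 in CA_IN and 16.1 and 19.1 in CA_IP, which do not overlap (log2FC 0.28, SE 0.08, adjusted p = 0.0121 with the pool, edgeR). HDAC9 was the lowest of class II in both treatments, at -0.20 (SE 0.29) and -0.27 (SE 0.31), each smaller than its own standard error.

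Of the 6 sirtuins, 5 lay above 0 in clean air and 4 in formaldehyde, with medians of 0.23 and 0.22. SIRT6, a chromatin-bound deacetylase, had 10.6 and 9.52 in CA_IN and 14.2 and 13.02 in CA_IP, and its log2FC of 0.44 was the largest of the list in clean air (SE 0.10, adjusted p = 0.00255 with the pool, edgeR, and 0.211 without it). SIRT2 had 16.4 and 14.7 in CA_IN, 19.7 and 19.8 in CA_IP, 18.4 and 15.3 in FA_IN and 20.7 and 20.7 in FA_IP. Both of its immunoprecipitated groups lay above their input groups (log2FC 0.34, SE 0.08, adjusted p = 0.00521, and 0.31, SE 0.08, adjusted p = 0.0197, with the pool, edgeR). SIRT1, the nuclear sirtuin, was the lowest in both treatments, at -0.21 (SE 0.22) and -0.15 (SE 0.22), and neither value passed.

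KAT5, the catalytic subunit of the NuA4 acetyltransferase complex and a kinase activator in DNA damage signalling, had the largest difference of the list. Its levels were 11.1 and 10.1 in FA_IN and 15.0 and 16.1 in FA_IP, against 9.89 and 10.1 in CA_IN and 11.6 and 12.2 in CA_IP. The formaldehyde groups were well separated, with a log2FC of 0.55 (SE 0.13, adjusted p = 0.102, edgeR) that passed with the pool (0.56, SE 0.10, adjusted p = 3.35e-04, edgeR). In clean air it was 0.25 (SE 0.13), the highest of the acetyltransferases. The difference between the treatments was 0.30 (SE 0.18, unadjusted p = 0.127, edgeR) without the pool and 0.31 (SE 0.14, unadjusted p = 0.0328, adjusted p = 1, edgeR) with it, so a treatment-dependent uptake of KAT5 RNA was not shown. KAT6B was lowest in clean air at -0.27 (SE 0.18) and CREBBP in formaldehyde at -0.22 (SE 0.15).

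Of the H3K4 methyltransferases, 3 of 7 lay above 0 in clean air and 2 of 7 in formaldehyde, with medians of -0.05 and -0.12. KMT2C, a subunit of enhancer-bound COMPASS-like complexes, had 9.23 and 9.61 in FA_IN and 7.32 and 8.24 in FA_IP, without overlap (log2FC -0.28, SE 0.07, adjusted p = 0.0174 with the pool, edgeR). In clean air its libraries overlapped, at 7.93 and 9.02 against 7.76 and 8.17. KMT2A was lowest of the class in clean air at -0.14 (SE 0.14), KMT2B highest there at 0.09 (SE 0.16), and SETD1B highest in formaldehyde at 0.07 (SE 0.24).

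Of the other methyltransferases, 7 of 11 lay above 0 in clean air and 6 of 11 in formaldehyde. SETDB1, which trimethylates H3K9, had 13.3 and 13.4 in CA_IN and 15.8 and 16.2 in CA_IP (log2FC 0.26, SE 0.08, adjusted p = 0.0318 with the pool, edgeR), but 14.9 and 13.9 in FA_IN and 13.1 and 14.1 in FA_IP. EHMT2, the H3K9 dimethylase G9a, had 12.4 and 11.8 in CA_IN and 14.1 and 15.0 in CA_IP (log2FC 0.26, SE 0.08, adjusted p = 0.0204 with the pool, edgeR) and was the highest of the class in formaldehyde at 0.19 (SE 0.11). NSD1, an H3K36 methyltransferase, fell from 21.7 and 23.8 in FA_IN to 18.2 and 20.2 in FA_IP (log2FC -0.25, SE 0.07, adjusted p = 0.0197 with the pool, edgeR). NSD3 was lowest in clean air at -0.18 (SE 0.10). Of the 13 demethylases 9 and 6 lay above 0, and none was called in either fit. Their extremes were KDM5B at -0.08 (SE 0.15) and KDM6B at 0.23 (SE 0.38) in clean air, and KDM5A at -0.15 (SE 0.09) and KDM2B at 0.16 (SE 0.16) in formaldehyde.

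**Figure D2:**
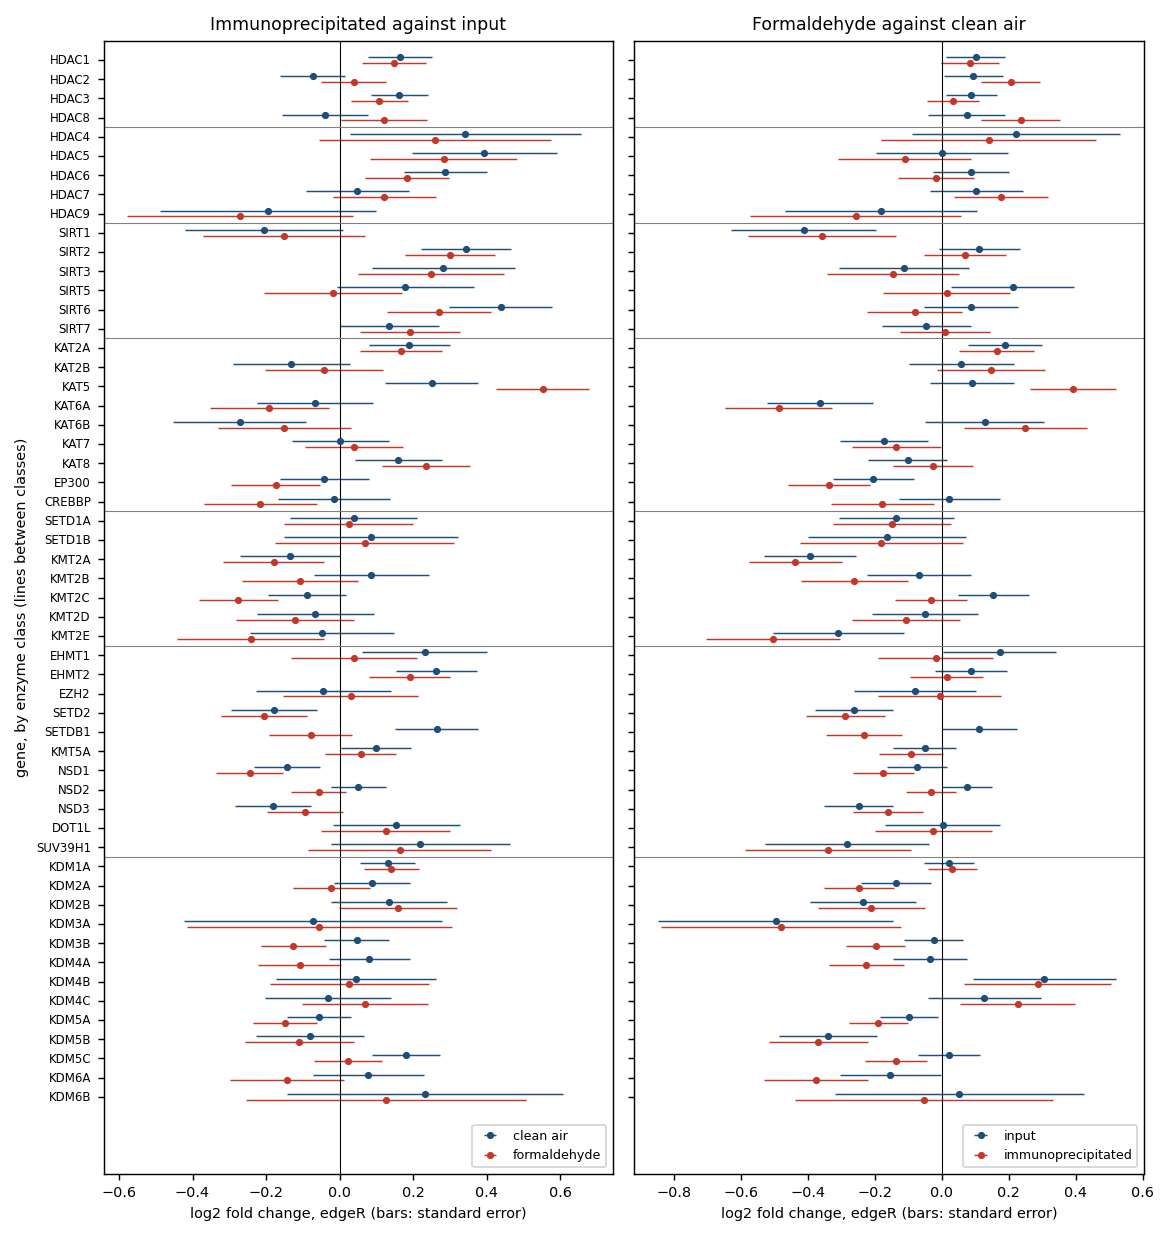
Log2 fold changes of the 55 genes from edgeR without the pool term (points) with standard errors (bars), on the left for immunoprecipitated against input RNA in each treatment and on the right for formaldehyde against clean air in each fraction. KAT5 in formaldehyde (0.55) is the highest point on the left, and KMT2E in immunoprecipitated RNA (-0.50) the lowest on the right.

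The order of the genes in the pull-down ran along the base composition of their RNA. For each gene the isoform with the most counts among those in GENCODE release 44 was taken. Its guanine share ran from 19.6% for KMT2E to 33.6% for SIRT7, with a median of 26.2%, against 24.7% for the tested genes with a sequence. This isoform held on average 99.4% of the counts of SUV39H1, but 10.7% for HDAC8 and 14.4% for KAT6B. That of KAT6B was at 0 in every immunoprecipitated library, so its composition need not be that of the RNA pulled down. Among the 18 genes with the lowest guanine shares, up to 23.9%, 2 lay above 0 in clean air and 3 in formaldehyde, and the median log2FC was -0.08 and -0.15. Among the 18 with the highest shares, from 27.9%, 17 and 16 lay above 0, with medians of 0.17 and 0.16. The 19 genes between them had medians of 0.10 and 0.06. Genes are not independent replicates, and all points of a treatment come from the same 4 libraries.

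Length differed along the same order. The median length was 8048 nt in the guanine-poorest group, 4486 nt in the middle one and 4022 nt in the richest. The long, guanine-poor KMT2C (16860 nt, 22.1%), KMT2A (16600 nt, 22.4%) and KMT2E (7782 nt, 19.6%) lay below 0 in both treatments, and the short, guanine-rich SIRT6 (1600 nt, 31.6%), KAT5 (1697 nt, 29.0%) and SIRT7 (1725 nt, 33.6%) above it. Across the 55 genes Pearson's r of log2FC with length was -0.48 in clean air and -0.64 in formaldehyde, and over 18173 tested genes 0.03 and 0.02. With guanine share it was 0.72 and 0.65 across the 55 and 0.28 and 0.20 over all. By rank (Spearman's rho) guanine share gave 0.73 and 0.68 across the 55 and 0.54 and 0.41 over all, so the trend was not particular to the list. Length gave -0.52 and -0.74 across the 55 and -0.03 and -0.04 over all by rank. The part of either property in the uptake was not tested.

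**Figure D3:**
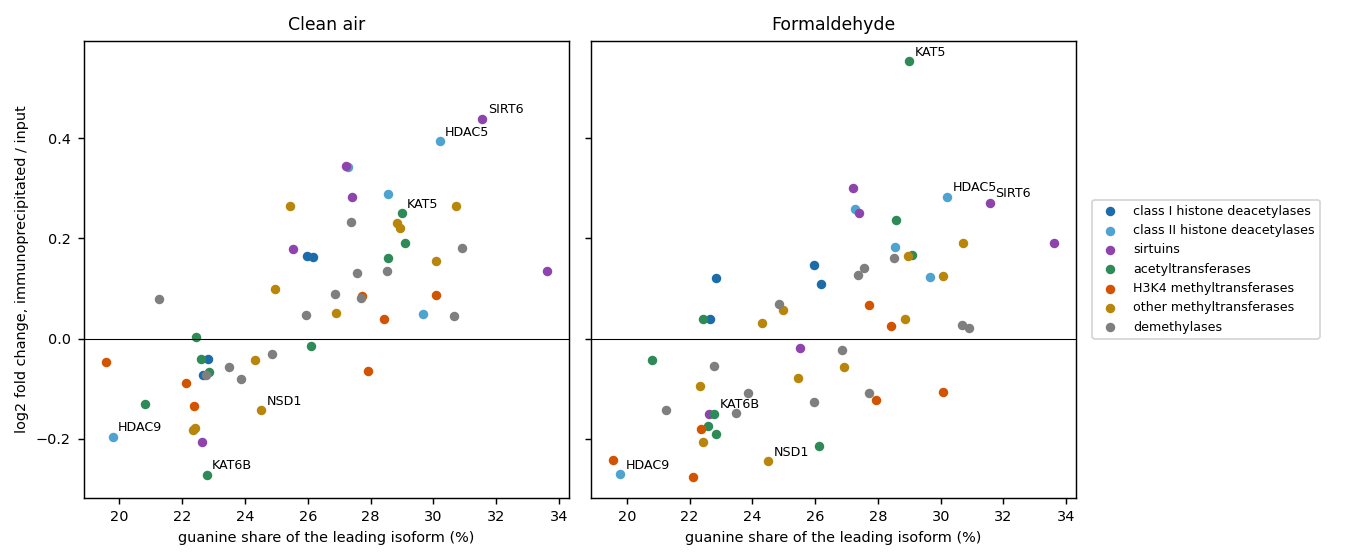
Guanine share of each gene's leading isoform (x axis, percent) against the log2 fold change of immunoprecipitated over input RNA (y axis) for the 55 genes, colored by enzyme class, in clean air (left) and formaldehyde (right). Of the 18 guanine-poorest genes 2 in clean air and 3 in formaldehyde lie above 0, and of the 18 richest 17 and 16.

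The next comparison asked whether exposure altered the amount of these transcripts. In input RNA none of the 55 genes was called, and 0.00548% of all genes were (1 gene). In immunoprecipitated RNA none was called either, and 0% of all genes. An unadjusted p under 0.05 was seen for 4 of 55 in input, against 3.35% of all genes, and for 10 of 55 in immunoprecipitated RNA, against 4.77%. DESeq2 called none of the 55 in either fraction, and 0.0164% and 0.0219% of all genes. The median log2FC of the list was -0.02 in input (0.02 over all genes) and -0.11 in immunoprecipitated RNA (-0.01 over all genes), where 38 of 55 lay below 0. The 2 fractions of a pool are not independent cultures, so a like sign in both is not a repeat. A fit with the replicate number as a block called 4 of the 55 in input (1.41% of all genes) and 5 in immunoprecipitated RNA (2.08%), all lower. It called 3 and 1 for pull-down against input (10.6% and 5.22% of all genes) and 0 for the difference between treatments (0.0164%).

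The lowest values belonged to enzymes of different classes. KMT2A, whose fusions drive leukemia, had 16.3 and 13.7 CPM per kb in CA_IN and 11.99 and 10.9 in FA_IN, and 15.3 and 12.1 in CA_IP and 10.7 and 9.47 in FA_IP. The treatments did not overlap in either fraction, and the log2FC was -0.39 (SE 0.14, unadjusted p = 0.0187, adjusted p = 0.945, edgeR) in input and -0.44 (SE 0.14, unadjusted p = 0.0118, adjusted p = 0.907, edgeR) in immunoprecipitated RNA. KAT6A, the acetyltransferase MOZ, had 11.3 and 9.37 in CA_IN and 8.61 and 7.48 in FA_IN (log2FC -0.37, SE 0.16), and 11.0 and 8.76 against 7.75 and 6.36 in immunoprecipitated RNA (log2FC -0.49, SE 0.16). The H3K4 demethylase KDM5B had 20.4 and 17.4 in CA_IN and 15.9 and 14.0 in FA_IN (log2FC -0.34, SE 0.15). These too were separated, with adjusted p = 0.945 in input (edgeR) for both.

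KDM3A, a hypoxia-induced H3K9 demethylase, had the lowest log2FC in input, -0.50 (SE 0.35), but its libraries overlapped, at 10.3 and 6.45 in CA_IN against 7.11 and 4.78 in FA_IN. Within each replicate number FA_IN was the lower, and the fit with the replicate number as a block called KDM3A in input (log2FC -0.48, SE 0.09, adjusted p = 0.0277, edgeR) and in immunoprecipitated RNA (adjusted p = 0.0266, edgeR). KMT2E was lowest in immunoprecipitated RNA, with 20.9 and 14.4 in CA_IP against 13.3 and 11.6 in FA_IP (log2FC -0.50, SE 0.20). All 7 genes of the H3K4 group lay below 0 in immunoprecipitated RNA, with KMT2C the highest at -0.03 (SE 0.11). In input all of the group but KMT2C (0.15, SE 0.11) did. SUV39H1 was lowest of the other methyltransferases at -0.28 (SE 0.24) and -0.34 (SE 0.25), with EHMT1 highest in input at 0.17 (SE 0.17) and EHMT2 in immunoprecipitated RNA at 0.01 (SE 0.11).

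The 4 class I deacetylases all lay above 0, from 0.07 for HDAC8 to 0.10 for HDAC1 in input and from 0.03 for HDAC3 to 0.23 for HDAC8 in immunoprecipitated RNA. HDAC9 was lowest of class II (-0.18, SE 0.29, and -0.26, SE 0.31), with HDAC4 highest in input (0.22, SE 0.31) and HDAC7 in immunoprecipitated RNA (0.18, SE 0.14). SIRT1 had the lowest sirtuin value in both fractions, -0.41 (SE 0.22) and -0.36 (SE 0.22), and SIRT5 (0.21, SE 0.18) and SIRT2 (0.07, SE 0.12) the highest. KAT2A was the highest acetyltransferase in input (0.19, SE 0.11) and KAT5 in immunoprecipitated RNA (0.39, SE 0.13, adjusted p = 0.907, edgeR). KDM4B was the highest demethylase in both (0.31, SE 0.21, and 0.29, SE 0.22), and KDM3A the lowest (-0.48, SE 0.36, in immunoprecipitated RNA). None of these values passed in the fit without a block.

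The difference between the treatments in pull-down over input was called for no gene of the list and for 0% of all genes. The fit with the pool called 0 of the 55 and 0.137% of all genes, with an unadjusted p under 0.05 for SETDB1 and KAT5. SETDB1 had an unadjusted p = 0.0112 and an adjusted p = 1 there (edgeR). Without the pool no member had an unadjusted p under 0.05, against 1.07% of all genes, and the median was -0.04 against -0.02. DESeq2 called none of the 55, and 0.0164% of all genes. SETDB1 had the lowest value, -0.34 (SE 0.16), and KAT5 the highest. The extremes in the other classes were HDAC3 and HDAC8, HDAC5 and HDAC7, SIRT5 and SIRT7, KMT2E and SETD1A, and KDM6A and KDM4C, from -0.22 to 0.16. CREBBP (-0.20, SE 0.22) was the lowest acetyltransferase, and NSD3 (0.09, SE 0.15) the highest of the other methyltransferases.

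Replicate libraries of these genes moved together within a pool and, less closely, by replicate number. After the group mean was removed, the deviations of the 55 genes in input and immunoprecipitated RNA of the same pool had a correlation of 0.88 in clean air and 0.67 in formaldehyde, against 0.42 and 0.28 over all genes tested. Between pools of different treatments with the same replicate number it was 0.52 to 0.62 for the 55 genes and 0.23 to 0.31 over all genes. SIRT1, KMT2A, KMT2E, KAT6A, KDM3A and KDM5B were among 17 genes that were higher in replicate 1 than in replicate 3 in all 4 groups, and 9 genes were lower in all 4. The same counts were not made over all genes tested, so they cannot be read as a trait of the list. KRT5 was lower in replicate 1 in the same groups, at 329 against 440 in CA_IN, and the part of such differences between cultures was not tested.

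Isoforms behaved differently from gene totals. Of the 895 isoforms, 124 made up at least 10% of their gene's counts on average and are called main isoforms here. They came from all 55 genes, 40 of which had more than 1. GENCODE release 44 listed 103 of them as protein-coding, 10 as targets of nonsense-mediated decay and 8 as retained introns. It listed 1 as protein-coding without a defined coding sequence, and 2, both of KMT2C, were not in it. Their shares were unsteady: the largest difference between replicates of a group was 9.95 percentage points at the median, it passed 10 points for 62 of the 124, and 14 had a library at 0. The absolute difference between FA_IN and CA_IN was 2.70 points at the median, against 4.69 points between replicates of the input groups. For 22 of the 124 the treatment difference was larger than both replicate differences. The same count was not made over all isoforms tested, so it cannot be read as a trait of these genes.

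No main isoform of the list was called at the transcript level by edgeR in any of the 5 comparisons, where 0.242% (CA_IP against CA_IN), 0.144% (FA_IP against FA_IN), 0%, 0% and 0% of the 67873 transcripts tested were called. Unadjusted p-values under 0.05 were found for 8, 8, 9, 6 and 4 of the 124 (edgeR). Over all 67873 transcripts they were found for 4789, 4039, 1898, 3009 and 1985. DESeq2 called 1, 5, 4, 0 and 3 of the 124, where it called 2.28%, 1.55%, 0.18%, 0.492% and 0.338% of all transcripts with an adjusted p. The KMT2C isoforms were among the calls in 3 of the comparisons. DESeq2 also called KAT6B ENST00000287239 in both pull-downs against input. SIRT7 ENST00000571832, a retained intron, was called lower in FA_IP than in FA_IN (log2FC -0.82, adjusted p = 0.00466, DESeq2). KMT2A ENST00000389506 was called lower in FA_IN than in CA_IN (log2FC -0.55, adjusted p = 0.0202, DESeq2). A test of each isoform's share within its gene (edgeR diffSpliceDGE) was run on 61615 isoforms, of which it called 0.38% in CA_IP against CA_IN, 0.242% in FA_IP against FA_IN, 0.169% in FA_IN against CA_IN and 0.204% in FA_IP against CA_IP. It called 1 main isoform, of KMT2C, in FA_IP against FA_IN and in FA_IN against CA_IN, and in the difference between the treatments, where 0.263% of all isoforms were called. It called none in the other comparisons, with unadjusted p under 0.05 for 2 in CA_IP against CA_IN and 0 in FA_IP against CA_IP, of 123 main isoforms tested. Over all 61615 isoforms 2978 and 2844 had such a p.

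KMT2C (chr7:152134922-152436644 of GRCh38, minus strand) had 3 long isoforms of nearly the same length. ENST00000355193 (16858 nt) held 54.8% and 56.5% of the gene's counts in CA_IN and 3.35% and 8.57% in FA_IN. In immunoprecipitated RNA it held 58.5% and 53.5% in CA_IP and 62.0% and 59.1% in FA_IP, so that the 2 FA_IN libraries alone were low. ENST00000262189 (16862 nt in the authors' tables, 16860 nt in GENCODE release 44) held 17.7% and 18.4% in CA_IN, 44.5% and 41.5% in FA_IN, and in pulled-down RNA 17.6% and 18.8% (CA_IP) and 14.9% and 17.1% (FA_IP). ENST00000558084, of the same length, had the same value as ENST00000262189 in every library, so the tables do not tell this pair apart.

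The share of ENST00000355193 fell by 3.19 on the log2 scale relative to all isoforms of the gene in FA_IN against CA_IN (adjusted p = 1.38e-06, edgeR), and was higher by 3.30 in FA_IP than in FA_IN (adjusted p = 1.10e-06, edgeR). This isoform was also singled out in the study on these libraries, so its direction is not independent evidence. Its counts gave a log2FC of -3.02 (SE 0.43, adjusted p = 0.804, edgeR) in input at the transcript level. The 3 long isoforms together held 90.1% to 93.6% of KMT2C counts in every library. The gene total was 51.2 and 58.2 CPM in CA_IN and 59.6 and 62.0 in FA_IN, so the swing was an exchange of estimated counts among the 3, without a lower total. ENST00000355193 and ENST00000558084 are not in GENCODE release 44. Reads shared by isoforms are divided by an estimate, so a change of isoform and a change in that division cannot be told apart here. ENST00000262189 and ENST00000558084 rose by 24.98 percentage points each between CA_IN and FA_IN and ENST00000355193 fell by 49.7.

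**Figure D4:**
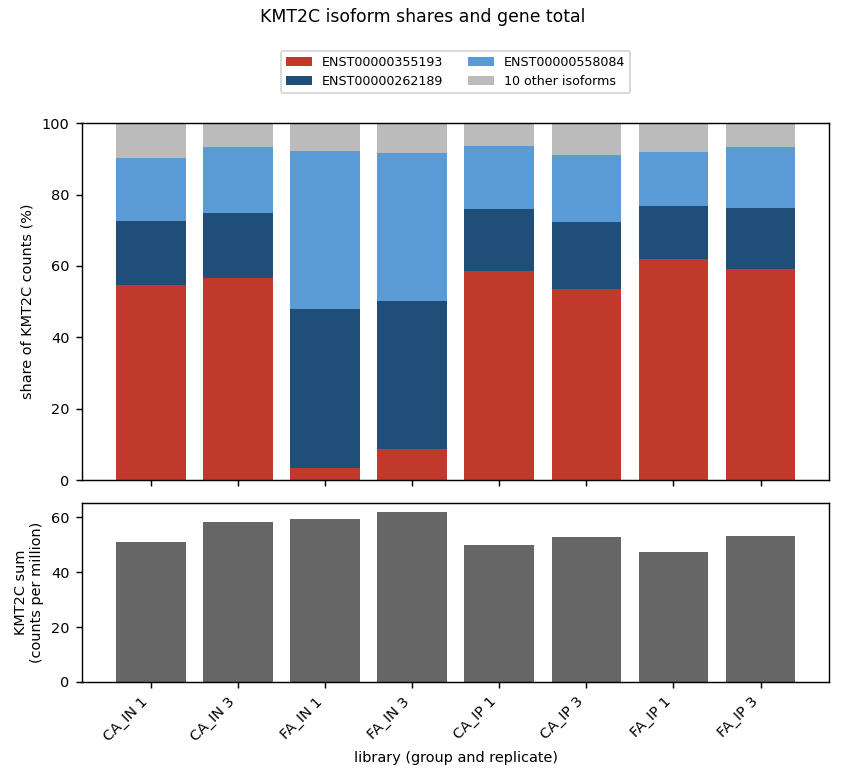
Share of KMT2C counts (percent, stacked bars) taken by 3 long isoforms and the other 10, above, and the gene's total in CPM (TMM-scaled), below, in each of the 8 libraries. The red isoform, ENST00000355193, holds 53.5% to 62.0% in 6 libraries and 3.35% and 8.57% in the FA_IN libraries, while the totals stay between 47.2 and 62.0.

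The other large differences of share between FA_IN and CA_IN came with large replicate differences. KDM4B ENST00000611640 held 64.4% and 43.9% in CA_IN and 39.0% and 5.47% in FA_IN, a fall of 31.9 points, with replicates up to 38.6 points apart. KDM6A, an X-linked H3K27 demethylase, had 5 main isoforms, of which ENST00000377967 held 52.8% and 14.6% in CA_IN and 11.6% and 8.93% in FA_IN. ENST00000536777 held 19.7% and 0% in CA_IN and 51.1% and 12.5% in FA_IN, with 55.9% and 0% in the FA_IP replicates. None of these shares was called.

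In KAT6B the main isoform ENST00000287239 held 4.41% and 39.3% in CA_IN and 33.8% and 37.6% in FA_IN, and 0% in all 4 immunoprecipitated libraries. Its share was not called in either treatment (adjusted p = 0.154 in clean air and 0.0935 in formaldehyde, edgeR), and DESeq2 called its counts lower in both at the transcript level (adjusted p = 0.0107 and 0.00557). It passed the count filter only through the input libraries. Over all 55 genes, protein-coding isoforms held 85.0% to 87.0% of input and 85.2% to 87.4% of immunoprecipitated counts, and retained introns 5.60% to 6.63% and 5.59% to 6.08%, which overlap. Single retained introns differed. SIRT7 ENST00000571832 was 12.6 points lower in CA_IP than in CA_IN and 18.8 lower in FA_IP than in FA_IN. Its replicates were up to 7.79 points apart, and its share was not called. SIRT7 ENST00000574992, also a retained intron, was 0.446 and 4.71 points higher.

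Among the rarer isoforms of these genes the share test called 4 more, of KMT2A, KDM3B, SETDB1 and EHMT2. EHMT2 passed only in the difference between treatments, a test added after the data were seen. Of the 423 isoforms of the list tested, main ones included, 0, 2, 3, 2 and 3 were called. The order is CA_IP against CA_IN, FA_IP against FA_IN, FA_IN against CA_IN, FA_IP against CA_IP and the difference. Over all isoforms 0.38%, 0.242%, 0.169%, 0.204% and 0.263% were called. The KDM3B isoform was named after its values were seen, and the others had been singled out in the study, as had an HDAC8 isoform that was not called. For each of these isoforms a coding segment is printed that its partner in the gene holds and it lacks. Differences outside coding sequence or past the range both isoforms share are not printed, so other differences can remain. The capitals mark the bases that 1 isoform holds and the other lacks, and 20 bases of the neighboring sequence on each side are in lower case, all 5′ to 3′ on the gene's strand from GRCh38.
KMT2A exon 10 of 36 in ENST00000389506 (chr11:118484862-118484975, plus strand), absent from ENST00000649699: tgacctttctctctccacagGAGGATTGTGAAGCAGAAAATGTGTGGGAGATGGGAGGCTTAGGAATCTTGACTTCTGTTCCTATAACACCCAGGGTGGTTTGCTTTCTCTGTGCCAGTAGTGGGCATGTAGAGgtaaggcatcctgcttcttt
EHMT2 exon 9 of 27 in ENST00000395728 (chr6:31888969-31889070, minus strand), absent from ENST00000375528: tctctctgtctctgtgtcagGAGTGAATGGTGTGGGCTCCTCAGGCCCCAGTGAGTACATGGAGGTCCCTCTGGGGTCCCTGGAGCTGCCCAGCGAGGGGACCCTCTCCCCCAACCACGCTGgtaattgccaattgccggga
KDM3B part of exon 7 of 24 in ENST00000314358 (chr5:138386191-138386288, plus strand), absent from ENST00000510866: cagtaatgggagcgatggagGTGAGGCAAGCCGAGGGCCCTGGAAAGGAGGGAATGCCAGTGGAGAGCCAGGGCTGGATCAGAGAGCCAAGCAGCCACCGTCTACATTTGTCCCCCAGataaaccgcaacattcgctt
SETDB1 start of exon 22 of 22 in ENST00000271640 (chr1:150964247-150964249, plus strand), absent from ENST00000368969: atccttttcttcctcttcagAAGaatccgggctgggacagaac
HDAC8 start of exon 6 of 11 in ENST00000373573 (chrX:72491001-72491006, minus strand), absent from ENST00000647980: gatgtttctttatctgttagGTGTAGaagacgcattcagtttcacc
The KMT2A and EHMT2 exons have 114 and 102 bases, both a multiple of 3, and the KDM3B stretch 98. The segments printed for SETDB1 and HDAC8 have 3 and 6 bases.

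KMT2A ENST00000649699 had 0 counts in all 4 clean air libraries, 189 and 227 in FA_IN and 100 and 79.8 in FA_IP. The bounds given here and below cover counting error only, and not errors in dividing shared reads among isoforms. Against a floor of 3 counts per library ENST00000649699 was at least 95.3-fold higher in FA_IN than in CA_IN. It was at least 32.9-fold higher in FA_IP than in CA_IP. Its share was called in both (adjusted p = 1.53e-09 and 1.26e-07, edgeR), and at 4.48% to 8.48% of KMT2A counts it lay below the 10% of a main isoform. The isoform passed the count filter only through the formaldehyde libraries, and with no filter the adjusted p was 2.56e-07 and 2.13e-05 (edgeR). Over the isoforms that reach past exon 10, those with the exon held 100% in clean air, 90.3% and 90.9% in FA_IN and 92.2% and 94.9% in FA_IP. Only ENST00000649699 lacks the whole exon there, so these percentages restate its counts and are no separate measure of the exon. The 2 main isoforms, ENST00000534358 and ENST00000389506, both hold the exon. ENST00000534358 also holds 9 coding bases (chr11:118491310-118491318) that ENST00000649699 lacks.

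KDM3B, a relative of KDM3A, had its decay-targeted isoform ENST00000510866 at 455 and 126 counts in CA_IN, 170 and 339 in FA_IN and 194 and 125 in CA_IP, while the FA_IP libraries held 0 and 0.26. It was at least 59.0-fold lower in FA_IP than in FA_IN and at least 48.4-fold lower than in CA_IP, and the share was called in both (adjusted p = 0.00142 and 0.00269, edgeR). Without FA_IP replicate 3 the adjusted p was 0.108 and 0.124. The gene total did not follow, at 16.6 and 17.5 CPM per kb in FA_IN and 14.8 and 16.4 in FA_IP.

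SETDB1 ENST00000368969 had 62.0 and 132 counts in CA_IN and 0 in both FA_IN libraries, at least 23.9-fold lower. Its counts, the 0s included, come from an estimated division of reads shared by isoforms. The CA_IP libraries held 31.2 and 35.0 and the FA_IP libraries 42.0 and 0. Its share was called in input (adjusted p = 0.0431, edgeR), and the adjusted p reached 0.447 without CA_IN replicate 3. The isoforms with the 3 bases held 88.5% and 69.8% in CA_IN and 100% in both FA_IN libraries. Only ENST00000368969 lacks these bases among the isoforms that reach past them, so the percentages restate its counts.

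EHMT2 ENST00000375528 had 0 counts in both CA_IN libraries, 64.6 and 235 in those of FA_IN, 176 and 0 for CA_IP and 10.1 and 0 for FA_IP, while ENST00000395728, which holds the exon, had 284 and 225, 0.02 and 18.7, 40.3 and 193, and 93.9 and 133 in the same order. The share of ENST00000375528 was called only in the difference between treatments (adjusted p = 0.0127, edgeR), a test added after the data were seen. At the exon itself the swing was smaller. Over the isoforms that reach past exon 9, those that hold it had 75.7% and 79.5% in CA_IN and 67.4% and 75.5% in FA_IN, and 68.6% and 82.8% in CA_IP and 74.2% and 79.5% in FA_IP, so the input and immunoprecipitated ranges of each treatment overlap. HDAC8 ENST00000647980 held 3.82% and 7.54% in CA_IN, 0% in both FA_IN libraries, 18.9% and 1.56% in CA_IP and 7.26% and 4.68% in FA_IP, and the isoforms with the 6 bases 71.1% and 63.8% in CA_IN and 76.1% and 82.4% in FA_IN.

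**Figure D5:**
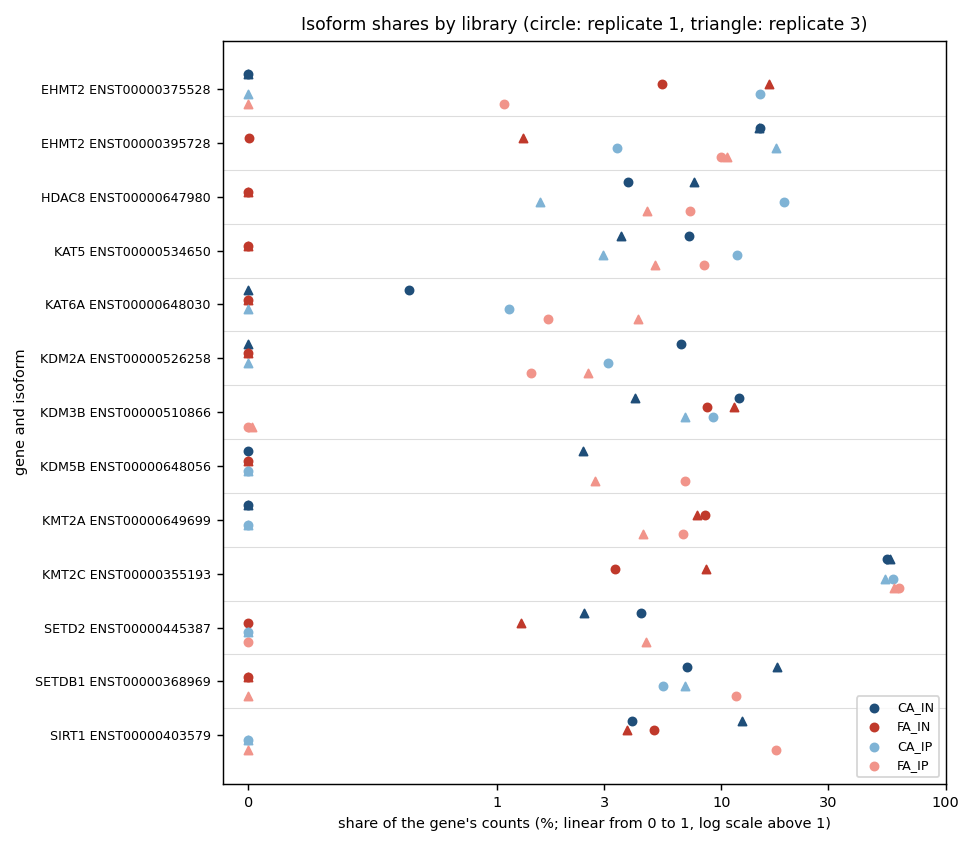
Share of the gene's counts (x axis, percent, linear to 1 and log scale above) taken by isoforms of the list that the study singled out or that the share test called, in each library, with circles for replicate 1 and triangles for replicate 3. KMT2A ENST00000649699 is at 0 in the clean air libraries, and KMT2C ENST00000355193 is low in the FA_IN libraries.

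Isoforms of 11 genes of the list had been singled out in the study on these libraries, 12 in all, so their direction in them is not independent evidence. Besides KMT2C, each held under 10% of its gene on average and had a library at 0 after rounding, and 6 were at 0 in both FA_IN libraries. None of the 12 was called at the transcript level by edgeR. KAT5 ENST00000534650 held 7.13% and 3.55% of its gene in CA_IN, 0% in both FA_IN libraries, 11.8% and 2.98% in CA_IP and 8.38% and 5.06% in FA_IP. SIRT1 ENST00000403579 held 4.0% and 12.4% in CA_IN, 5.0% and 3.80% in FA_IN, 0% in both CA_IP libraries, and 17.5% and 0% in FA_IP.

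KDM2A ENST00000526258 had 226 and 0 counts in CA_IN, so its bound of at least 24.4-fold lower in FA_IN rests on replicate 1 alone. KDM5B ENST00000648056 had 0 and 61.4 in CA_IN, 0 in FA_IN and CA_IP, and 74.9 and 33.7 in FA_IP. SETD2 ENST00000445387, listed as a decay target, had 134 and 59.0 in CA_IN, 0 and 24.4 in FA_IN, 0 in CA_IP and 0 and 54.1 in FA_IP. KAT6A ENST00000648030, a retained intron, had 17.2 and 0 in CA_IN, none with formaldehyde in input, 15.8 and 0 in CA_IP, and 12.6 and 35.4 for FA_IP. In each of these isoforms a group held 1 library at 0 and 1 above it.

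Of 40 further histone-modifying enzymes and 44 partner subunits of the complexes, all of which passed the filter, none was called in any of the 5 comparisons. Their median log2FC lay between -0.06 and 0.04. KDM8, a JmjC protein, had the widest range, at 1.06 (SE 0.25, adjusted p = 0.0869, edgeR) for CA_IP against CA_IN and -1.05 (SE 0.27, adjusted p = 0.907, edgeR) for FA_IP against CA_IP.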

How the data were processed

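Ribosomal RNA-depleted input RNA and RNA immunoprecipitated from it with an anti-8-oxoG antibody (the labels name the clone both 15A3 and 2E2) were sequenced as 75 bp paired-end reads in 8 libraries. The authors trimmed reads with cutadapt, aligned them with STAR 2.6.0a to GRCh38 with Ensembl 94 and quantified isoforms with RSEM 1.2.25, and deposited 1 table per library with expected counts and effective lengths in bases. No strand setting is stated, so overlapping antisense genes cannot be told apart. The deposited DESeq2 tables hold log2 fold changes and p-values of the authors' comparisons and were not used.

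Expected counts were rounded to whole numbers, summed by gene for the gene tests, and kept at 10 or more in 2 or more libraries. Genes and transcripts were tested in edgeR 4.0.16 (R 4.3.3) with TMM factors, 4 group means over all 8 libraries, the quasi-likelihood F test, a prior count of 0.125 and Benjamini-Hochberg adjustment at 0.05. Standard errors are the log2 fold change divided by the square root of F. Isoform shares were tested with diffSpliceDGE. The members and lists were chosen with earlier results of these data known. Named are every called member, the highest and lowest fold change and level of each class, every called main isoform, the isoforms the study singled out, the 3 largest differences of share between FA_IN and CA_IN in each direction, and called partner genes. KDM8 was chosen after its values were seen. Replicate numbers come from the submitters' file names. Input and immunoprecipitated RNA of a pool were paired by the study's methods, and their deviations from the group mean had a correlation of 0.42 in clean air and 0.28 in formaldehyde over all genes tested. DESeq2 1.42.0, fits to 4 libraries, other filters, library-size scaling, an effective-length offset, blocks and each library left out were alternatives. The interaction of isoform shares was added after the data were seen. The tests were checked on simulated counts for FA_IN against CA_IN only. Isoform counts were simulated with less spread between libraries than these data had (transcript common dispersion 0.303). Only well-counted isoforms were changed, so the check does not cover the calls on isoforms with low counts. Depth sets precision: bounds against 0 cover counting error only. Gene positions and sequences come from GRCh38 with GENCODE release 44. The sequence of ENST00000355193 was not analysed here.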

Additional observations from a re-analysis of the deposited data

Results flagged for a closer look

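The test of the difference between treatments in the immunoprecipitated against input share, added after the data were seen, passed for 3 isoforms of these genes, where 0.263% of all isoforms tested were called (edgeR). For KMT2C ENST00000355193 the adjusted p was 2.14e-04: the isoform held 54.8% and 56.5% in CA_IN and 58.5% and 53.5% in CA_IP, but 3.35% and 8.57% in FA_IN and 62.0% and 59.1% in FA_IP. For KDM3B ENST00000510866 the adjusted p was 0.00901, with 12.01% and 4.13% in CA_IN, 9.21% and 6.90% in CA_IP, 8.66% and 11.4% in FA_IN and 0% and 0.013% in FA_IP. For EHMT2 ENST00000375528 the adjusted p was 0.0127, with 0% in CA_IN, 14.9% and 0% in CA_IP, 5.44% and 16.3% in FA_IN and 1.07% and 0% in FA_IP. The KMT2C call held with each library left out (adjusted p from 1.80e-04 to 0.0117). The KDM3B call did not hold without CA_IN replicate 3 (0.0579), FA_IP replicate 1 (0.0565) or FA_IP replicate 3 (0.146), and the adjusted p of EHMT2 reached 1 without CA_IP replicate 1. Groups of 2 libraries are too small for a check of single outlying libraries.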

How the results depend on the processing

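Gene totals of the list were called under library-size scaling and under both blocks, and not in the other alternatives. Library-size scaling called 1 gene of the list in clean air (SIRT6) and 1 in formaldehyde (KAT5) for pull-down against input, where it called 6.34% and 3.08% of all genes, and raised the medians to 0.2265 and 0.2032. The RNA pool block called 6 and 5. The replicate block called 3 and 1, and for formaldehyde against clean air 4 in input (KAT6A, KMT2A, KDM3A, KDM5B) and 5 in immunoprecipitated RNA (the same 4 and KMT2E), where it called 1.41% and 2.08% of all genes. What the replicate number marks across treatments is not given in the labels, and 2 numbers are too few to settle the pairing, though same-numbered libraries of different treatments had correlations of 0.23 to 0.31 in their deviations. The clean air median of pull-down against input was 0.06133 with DESeq2, 0.04618 with DESeq2 on 4 libraries, 0.04441 with no filter, 0.04218 with a mean count of 50 and 0.04272 with the effective-length offset, which also gave -0.07852 for formaldehyde against clean air in immunoprecipitated RNA. Main isoforms called at the transcript level, for CA_IP against CA_IN, FA_IP against FA_IN and FA_IN against CA_IN, were 1, 5 and 4 with DESeq2 (3 in the difference between treatments), 1, 4 and 3 with DESeq2 on 4 libraries (1.79%, 1.28% and 0.412% of all transcripts), and 1, 4 and 3 with no filter (0.484%, 0.355% and 0.0486%; 1 in the difference, 0.1%). FA_IP against FA_IN gave 3 with a mean count of 50 (0.677%) and 2 with the replicate block (0.162%). With main isoforms taken from a share of 5%, changed shares numbered 2 in FA_IP against FA_IN, 2 in FA_IN against CA_IN, 1 in FA_IP against CA_IP and 2 in the difference. The cause of these changes was not tested. With each library left out, medians ran from 0.03337 to 0.09763 (CA_IP against CA_IN), -0.02411 to 0.07896 (FA_IP against FA_IN), -0.08309 to -0.003191 (FA_IN against CA_IN), -0.1274 to -0.05754 (FA_IP against CA_IP) and -0.08766 to 0.05092 (the difference). No gene or main isoform was then called, and changed shares numbered 0 to 2, 1 to 2, 1 to 1, 0 to 2 and 1 to 3 in the same order. The share calls of KMT2C (adjusted p up to 0.00294 in FA_IN against CA_IN) and KMT2A (up to 1.90e-04) held in every such fit. That of SETDB1 was lost with the replicate block (0.164). With 2 libraries a group and a biological coefficient of variation of 0.551 for transcripts against 0.138 for genes, isoform differences are the less precise.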
